A study of Mus musculus with 4 samples.

Results

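Cystine import and glutathione synthesis were followed through 8 genes, Slc7a11, Slc3a2, Gclc, Gclm, Gss, Gsr, Gpx2 and Gpx4, which were taken by symbol from the 54446 genes of the deposited table. All 8 had an FPKM (fragments per kilobase of exon at a common library size) above 0 in all 4 libraries, as did 17787 genes in all. The genes were chosen by function, with their FPKM in these libraries and earlier results of these data known, so the changes below are a description and carry no test. The samples were wild type C57BL/6 mouse mammary cells that had been sorted, embedded in growth factor-reduced Matrigel and given DMSO, the solvent control, or 100 μM baicalin, a flavonoid of Scutellaria roots. All cultures had EGF and a supplement of insulin, transferrin and selenium in the medium, and selenium is a part of both Gpx2 and Gpx4. There was 1 library for each of the conditions basal with DMSO, basal with baicalin, luminal with DMSO and luminal with baicalin. The cells came from female mice, virgin or at other stages by the study's methods, and colonies in such cultures were scored after about a week. Those methods tie no age, number of mice or day of harvest to these libraries. There were no replicates, so the intervals below cover counting error only and baicalin cannot be told apart from any other difference between the cultures.

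Cells take up cystine, the oxidised dimer of cysteine, through a transporter made of the light chain xCT, encoded by Slc7a11, and the heavy chain CD98, encoded by Slc3a2. Inside the cell cystine is reduced to cysteine. Glutamate-cysteine ligase, with a catalytic subunit from Gclc and a modifier subunit from Gclm, joins cysteine to glutamate in the rate-limiting step, and glutathione synthetase (Gss) adds glycine. Glutathione peroxidases such as Gpx2 and Gpx4 spend glutathione on hydrogen peroxide and lipid peroxides, and glutathione reductase (Gsr) restores it with NADPH. In many tissues these genes are targets of the oxidant-sensing factor NRF2 through antioxidant response elements, and Slc7a11 is also a target of the amino acid stress factor ATF4 through amino acid response elements.

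The promoters of Slc7a11 and Gclm are shown because their genes had the largest changes of the 8 in the libraries labelled basal and because each holds 1 of the 2 elements searched for. In both, the sequence ends at the last base before the RefSeq transcription start, on GRCm38.p6. In the Slc7a11 sequence the capitals mark the amino acid response element core TGATGNAA, and in the Gclm sequence they mark the antioxidant response element core TGACNNNGC, each read on both strands.
Slc7a11, chr3:50443614-50443723, minus strand: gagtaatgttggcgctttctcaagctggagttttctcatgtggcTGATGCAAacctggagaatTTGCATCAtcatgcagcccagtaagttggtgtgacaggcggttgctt
Gclm, chr3:122245397-122245556, plus strand: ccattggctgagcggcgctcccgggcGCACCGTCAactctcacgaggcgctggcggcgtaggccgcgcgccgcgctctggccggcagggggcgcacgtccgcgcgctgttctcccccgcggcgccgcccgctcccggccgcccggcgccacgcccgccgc

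The Slc7a11 promoter held 2 cores that face each other, a forward match from 66 to 59 bases and a reverse match from 47 to 40 bases before the start. The Gclm promoter held 1 reverse match, from 134 to 126 bases before the start. RefSeq gave windows of 250 bases before to 50 bases after a start for 6 of the 8 genes, 9 windows in all since Gpx4 has 4, and Gclc and Gsr had no entry. None of the other 7 windows held either core, which says only that these letters are not in them. Of 32851 windows of all genes, 12.4% held TGACNNNGC, 3.97% held TGATGNAA and 0.07% held TGATGNAA at 2 or more places. The matches are letters in a window and were not tied to binding in these cells.

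The basal and the keratin markers ran against the labels, and the hormone-sensing markers were split. Of 10 basal markers, all 10 had more FPKM under the luminal than under the basal label, both with DMSO, where they summed to 5380 against 1804 FPKM, and with baicalin. With baicalin their sum was 513 FPKM under the basal label and 7223 FPKM under the luminal label, so it was lower than with DMSO under the first and higher under the second. Krt5, a keratin of basal cells, went from 128 to 3.01 FPKM under the basal label and from 2015 to 2415 FPKM under the luminal label. Of 10 markers of luminal epithelium, 9 with DMSO and 8 with baicalin had more FPKM under the basal label, and their sums were 4384 and 3036 FPKM there and 1282 and 1082 FPKM under the luminal label. Of 8 markers of hormone-sensing luminal cells, 4 with DMSO (Esr1, Pgr, Foxa1 and Cited1) had more FPKM under the luminal label, as labelled, and 4 had less. Pgr, the progesterone receptor, had 1.08 FPKM under the basal and 4.81 FPKM under the luminal label with DMSO. With baicalin 3 of these 8 had more FPKM under the luminal label. Of 8 markers of alveolar luminal cells, 2 with DMSO and 2 with baicalin had more FPKM under the luminal label. Their sums with DMSO were 203 FPKM under the basal and 65.8 FPKM under the luminal label. With baicalin the sums were 111 and 170 FPKM, and most of each sum was Aldh1a3. The summed endothelial markers were at most 3.31 FPKM and the summed fibroblast markers at most 10.4 FPKM, the latter in the luminal DMSO library, where Pdgfra had 6.30 FPKM. Nearly all of the immune list was Cd68, a lysosomal glycoprotein of macrophages, which went from 7.49 to 51.5 FPKM with baicalin in the libraries labelled basal and from 4.44 to 13.7 FPKM in those labelled luminal, while the pan-leukocyte gene Ptprc was at most 0.0138 FPKM in all 4 libraries. The names basal and luminal are therefore used as labels of the libraries, and the part of cell makeup in any result below was not tested. In these bulk libraries fewer cells of a type and less RNA per cell cannot be told apart. Depth was even, between 19356100 and 20648784 fragments a library.

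With baicalin all 8 genes were higher in both pairs of libraries, where 50.9% of all genes were higher under the basal label and 45.6% under the luminal label. In the libraries labelled basal 4 of the 8 (Slc7a11, Gclm, Gclc and Slc3a2) were higher by over 1 on the log2 scale with 1 FPKM added, beside 2.15% of all genes. In the libraries labelled luminal 3 of the 8 (Slc7a11, Gclc and Gpx2) passed the same mark, beside 2.37% of all genes. Slc7a11 and Gclc were the members past it under both labels. The counting interval of the ratio lay above 1 for 7 of the 8 under the basal label, beside 28.1% of all genes, and for all 8 under the luminal label, beside 22.9%. Since these contrasts were known when the genes were chosen, nothing is read from the counts. Over the 8 genes the median log2 change was 0.94 under the basal label and 0.62 under the luminal label, and over all genes it was 0.01 and -0.02. Without Slc7a11 these medians were 0.64 and 0.37. The basal markers also moved with baicalin, 1 of 10 being higher under the basal label and 5 of 10 under the luminal label, and their part in the members' changes was not tested.

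**Figure D1:**
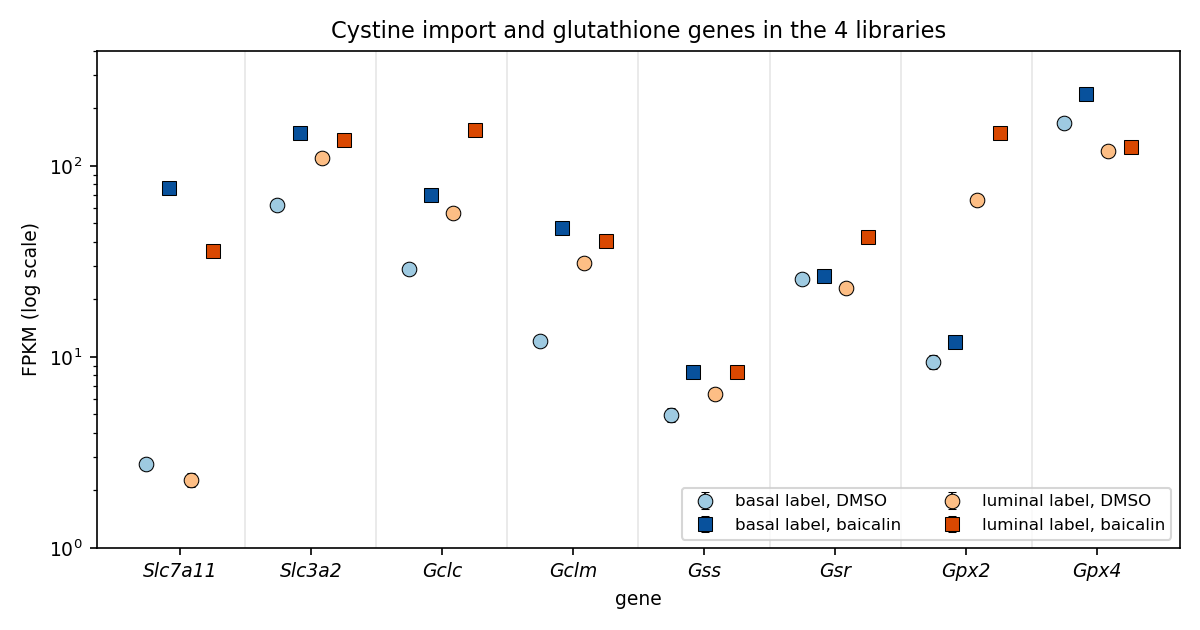
FPKM on a log axis for the 8 genes in each of the 4 libraries, circles for DMSO and squares for baicalin, with 95% Poisson intervals of the fragments that are mostly smaller than the symbols. Slc7a11 separates by treatment, from 2.27 and 2.73 FPKM with DMSO to 35.6 and 76.4 FPKM with baicalin, and Gpx2 separates by label, with 9.41 and 11.9 FPKM under the basal label and 65.9 and 149 FPKM under the luminal label.

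Slc7a11 (ENSMUSG00000027737, GRCm38 chromosome 3, 49892526 to 50443614), the light chain that carries cystine, had 2.73 FPKM with DMSO and 76.4 FPKM with baicalin under the basal label, and 2.27 FPKM with DMSO and 35.6 FPKM with baicalin under the luminal label. Both baicalin libraries were far above both DMSO libraries. The ratio was 28.0 (95% counting interval 26.0 to 30.1) under the basal label and 15.7 (14.5 to 17.1) under the luminal label. By log2 change it ranked 3 and 4 among the 17787 genes. Between the labels it differed little with DMSO, where the level under the luminal label was 0.830 times (0.745 to 0.925) that under the basal label, and with baicalin it was 0.466 times (0.455 to 0.477). Transcripts of Slc7a11 share stretches of up to 375 bases with 9 other genes, among them the alpha-tubulin genes Tuba1a, Tuba1b and Tuba1c. Tuba1b had 122 and 54.8 FPKM with DMSO and baicalin under the basal label and 123 and 84.6 FPKM under the luminal label. Tuba1a had 76.1 and 32.8 FPKM, then 29.2 and 40.8 FPKM, and Tuba1c had 79.2 and 48.7 FPKM, then 57.4 and 59.6 FPKM. The 3 were lower with baicalin under the basal label, and under the luminal label Tuba1a and Tuba1c were higher.

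Slc3a2 (ENSMUSG00000010095, chromosome 19, 8706882 to 8723369), the CD98 heavy chain that brings xCT and other light chains to the membrane, had 62.0 and 149 FPKM with DMSO and baicalin under the basal label and 110 and 136 FPKM under the luminal label. The basal DMSO library was the lowest and the other 3 lay within 110 to 149 FPKM. The ratio of baicalin to DMSO was 2.40 (2.32 to 2.49) under the basal label and 1.23 (1.19 to 1.27) under the luminal label. Slc3a2 was thus above the mark of 1 on the log2 scale under the basal label only, and the ratio there was 1.95 times (1.86 to 2.04) the ratio under the luminal label.

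Per length of exon, Slc3a2 exceeded Slc7a11 in all 4 libraries, by 22.7-fold (21.01 to 24.6) and 48.7-fold (44.9 to 53.0) in the DMSO libraries labelled basal and luminal. With baicalin the excess was 1.95-fold (1.90 to 1.99) and 3.82-fold (3.71 to 3.93). The 2 partners of the transporter were therefore closer in level with baicalin under both labels.

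Gclc (ENSMUSG00000032350, chromosome 9, 77754535 to 77794485), the catalytic subunit of the ligase, had 28.8 and 70.4 FPKM with DMSO and baicalin under the basal label and 56.8 and 154 FPKM under the luminal label. The ratios were close, 2.44 (2.32 to 2.57) and 2.72 (2.62 to 2.81), and Gclc was about as much higher under the luminal label with DMSO (1.97 times, 1.87 to 2.07) as with baicalin (2.19 times, 2.12 to 2.26). In the baicalin library labelled luminal it was the highest of the 8 genes in the deposited FPKM, and with the longest coding transcript as length it came after Gpx2, Gpx4 and Slc3a2.

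Gclm (ENSMUSG00000028124, chromosome 3, 122245557 to 122270732), the modifier subunit that raises the ligase's affinity for glutamate, had 12.1 and 47.3 FPKM under the basal label and 31.1 and 40.6 FPKM under the luminal label. The basal DMSO library stood below the other 3. The ratio was 3.90 (3.69 to 4.13) under the basal label and 1.31 (1.25 to 1.36) under the luminal label, and the first was 2.99 times (2.79 to 3.21) the second, the widest gap between labels among the 8 genes. With DMSO the level was 2.57 times (2.42 to 2.73) higher under the luminal label, and with baicalin it was 0.859 times (0.828 to 0.891) that under the basal label. Of its 6291 exon bases, 244 are shared with the pseudogene Gm6061 on the same strand. Transcripts of Gclm match 15 genes over stretches of at most 297 bases, the most abundant of them Ppia and Gm10123. Gm10123 had 218 and 289 FPKM under the basal label and 151 and 202 FPKM under the luminal label.

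The ligase subunits changed in different proportion under the 2 labels. With DMSO the FPKM of Gclc was 2.38 times (2.23 to 2.54) that of Gclm under the basal label and 1.82 times (1.75 to 1.91) under the luminal label. With baicalin it was 1.49 times (1.44 to 1.55) and 3.80 times (3.67 to 3.92). The ratio of catalytic to modifier transcript was lower with baicalin under the basal label and higher under the luminal label, a difference that could not be tested with 1 library a condition.

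**Figure D2:**
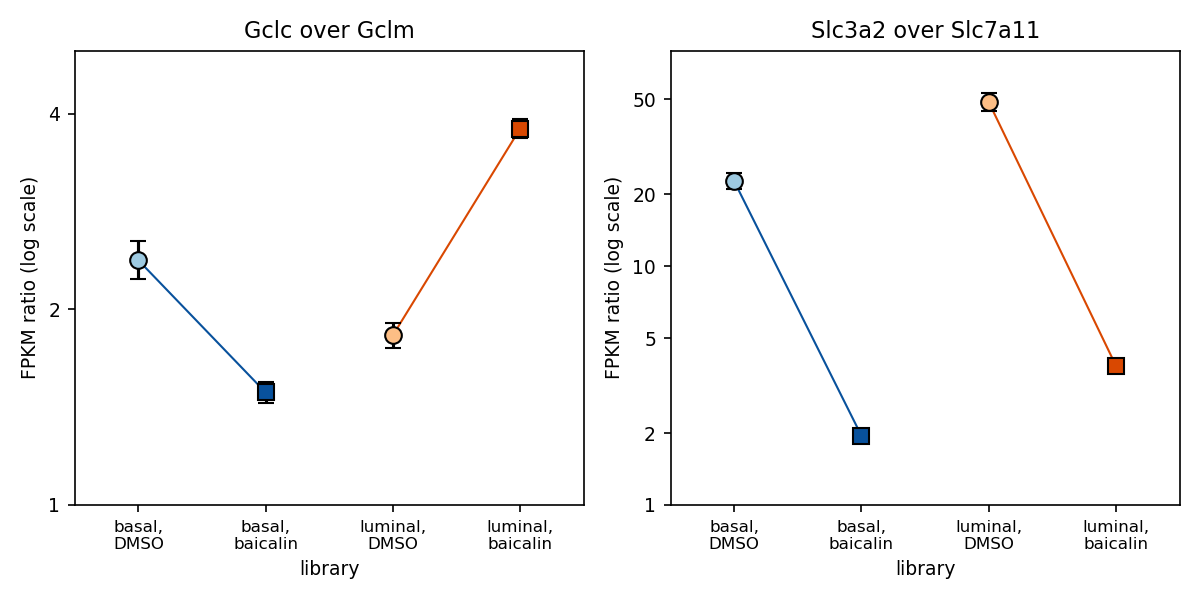
FPKM of Gclc over that of Gclm (left) and of Slc3a2 over that of Slc7a11 (right) in each library, on log axes with 95% counting intervals, a line joining DMSO (circle) to baicalin (square) within a label. The Gclc to Gclm ratio goes down under the basal label, from 2.38 to 1.49, and up under the luminal label, from 1.82 to 3.80, and the Slc3a2 to Slc7a11 ratio goes down under both.

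Gss (ENSMUSG00000027610, chromosome 2, 155563181 to 155592810), which completes glutathione, had the narrowest range of the 8 genes by highest over lowest level, with 4.97 and 8.29 FPKM under the basal label and 6.40 and 8.32 FPKM under the luminal label. The 2 baicalin libraries did not differ beyond counting error, with a ratio of luminal to basal label of 1.003 (0.918 to 1.10). The ratio of baicalin to DMSO was 1.67 (1.504 to 1.85) under the basal label and 1.30 (1.18 to 1.43) under the luminal label. Gss shares 395 of its 5915 exon bases with Acss2 on the opposite strand, and Acss2 lay between 0.485 and 4.39 FPKM.

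Gsr (ENSMUSG00000031584, chromosome 8, 33652523 to 33698163), which returns oxidised glutathione to its reduced form, had 25.6 and 26.4 FPKM under the basal label, a ratio of 1.03 with a counting interval of 0.961 to 1.11 that includes 1. Under the luminal label it had 22.9 and 42.6 FPKM, a ratio of 1.86 (1.74 to 1.99). The luminal baicalin library stood above the other 3. It was the only one of the 8 genes whose interval included 1 in either comparison of baicalin with DMSO.

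**Figure D3:**
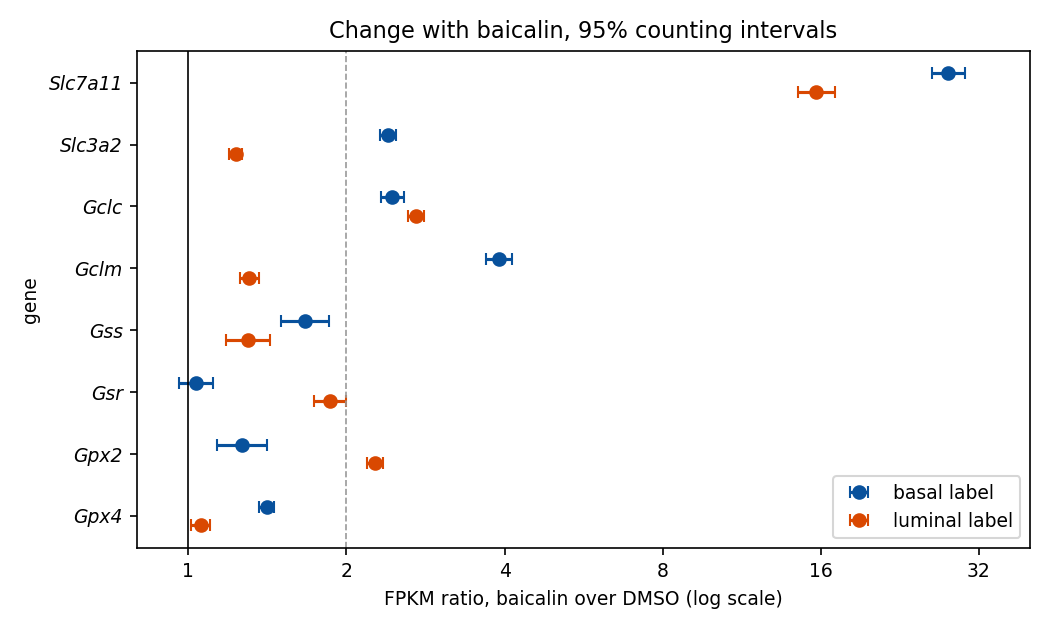
Ratio of FPKM with baicalin to FPKM with DMSO for each of the 8 genes on a log axis, with exact 95% counting intervals, blue for the libraries labelled basal and orange for those labelled luminal, a solid line at 1 and a dashed line at 2. Slc7a11 lies farthest right under both labels (28.0 and 15.7), Gclm and Slc3a2 are further right under the basal label, and Gsr and Gpx2 are further right under the luminal label.

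Gpx2 (ENSMUSG00000042808, chromosome 12, 76792333 to 76795554), a selenium-containing peroxidase best known from gut epithelium, had 9.41 and 11.9 FPKM under the basal label and 65.9 and 149 FPKM under the luminal label. Both libraries labelled luminal were above both labelled basal. With DMSO the level was 7.003 times (6.43 to 7.64) higher under the luminal label and with baicalin 12.5 times (11.7 to 13.5) higher, where basal markers were also the higher ones. The ratio of baicalin to DMSO was 1.27 (1.14 to 1.41) under the basal label and 2.26 (2.18 to 2.35) under the luminal label.

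Gpx4 (ENSMUSG00000075706, chromosome 10, 80047166 to 80056439), the peroxidase that reduces lipid peroxides within membranes and whose loss permits ferroptosis, had 168 and 236 FPKM under the basal label and 119 and 126 FPKM under the luminal label. Its order by label was the reverse of that of Gpx2. The ratio was 1.41 (1.36 to 1.46) under the basal label and 1.06 (1.01 to 1.10) under the luminal label, the smallest change there. The pseudogene Gpx4-ps2 matches Gpx4 transcripts at 99.8% identity over 762 bases and was listed at 56.4, 66.3, 36.5 and 37.1 FPKM in the order basal DMSO, basal baicalin, luminal DMSO and luminal baicalin, so the split of fragments between them is uncertain.

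Between labels with DMSO, 2 of the 8 genes (Gpx2 and Gclm) were higher under the luminal label by over 1 on the log2 scale, beside 4.71% of all genes, and none was lower by over 1, beside 3.86%. With baicalin Gpx2 and Gclc were higher by over 1, beside 5.24% of all genes, and Slc7a11 was lower by over 1, beside 2.99%. The 4 comparisons share libraries in pairs, so they are not independent of each other.

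The difference of the log2 changes, basal minus luminal label, ran from -0.86 for Gpx2 to 1.51 for Gclm. Slc3a2 (0.95), Slc7a11 (0.89), Gpx4 (0.42) and Gss (0.31) were on the basal side, and Gsr (-0.82) and Gclc (-0.17) were on the luminal side with Gpx2. Over all 17787 genes the median difference was 0.03 and 95% of genes lay between -1.31 and 1.02, so Gclm was the member outside that range.

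The share of each member among proteins of its kind was read next, in FPKM. Slc7a11 made up 8.08% of the summed FPKM of 6 light chains that pair with CD98 in the DMSO library labelled basal, and 69.4% in the baicalin library. Under the luminal label the share went from 5.52% to 35.8%. Slc7a6, a carrier of cationic and neutral amino acids, had the largest share in both DMSO libraries, 41.9% and 42.5%, and held 7.62% and 13.3% with baicalin. Slc7a5, the LAT1 carrier of large neutral amino acids, held 37.3% and 19.95% under the basal label and 41.2% and 41.1% under the luminal label. Under the luminal label Slc7a5 therefore stayed above Slc7a11 with baicalin, and under the basal label it did not. When FPKM was recomputed on the longest coding transcript, the shares of Slc7a11 with baicalin were 75.1% and 42.9%, and Slc7a5 held 34.4% under the luminal label, so the order there depends on the length used.

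Among the 8 glutathione peroxidases, Gpx4 held 40.6% of the summed FPKM with DMSO and 57.8% with baicalin under the basal label, and 27.0% and 22.8% under the luminal label. Gpx2 held 2.28% and 2.91% under the basal label and 14.9% and 27.1% under the luminal label. Gpx1, the cytosolic peroxidase present in most cells, held 50.3% and 33.2%, then 46.8% and 42.6%, in the same order. The exon model of Gpx2 spans 3222 bases and its longest coding transcript 1067, so its level per length is understated more than that of Gpx4, with 1724 and 995 bases. With the longest coding transcript as length, Gpx2 held 4.54% and 5.50% under the basal label and 27.1% and 43.9% under the luminal label. In the luminal baicalin library it was then above Gpx1, at 30.8%, so that order depends on the length used. In the basal DMSO library Gpx4 then held 46.4% and Gpx1 44.5%, so their order there depends on the length as well. On the coding transcripts the FPKM of Gpx4 was 1.04 times that of Gpx2 in the luminal DMSO library and 0.484 times in the luminal baicalin library, against 10.2 and 11.4 times in the libraries labelled basal.

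**Figure D4:**
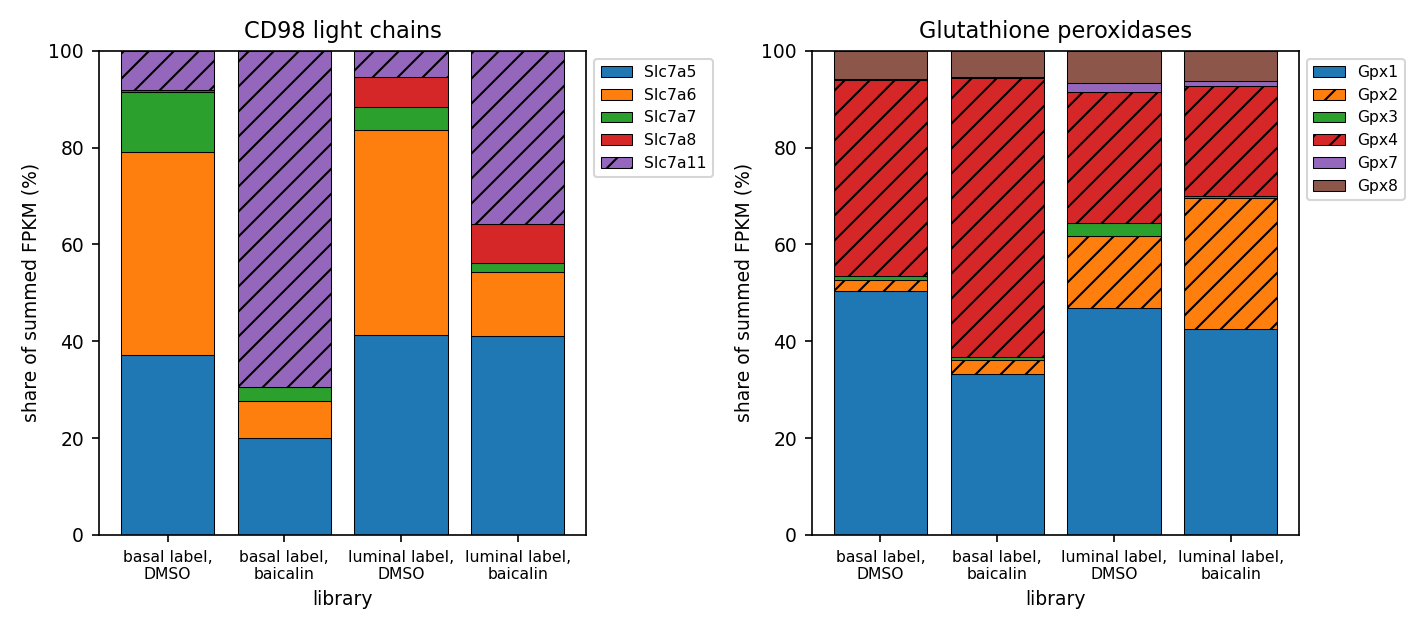
Stacked bars give the percent of summed FPKM held by each CD98 light chain (left) and each glutathione peroxidase (right) in the 4 libraries, with members of the list hatched. Slc7a11 fills 69.4% and 35.8% of the light chains with baicalin, and Gpx2 goes from a thin band of 2.28% and 2.91% under the basal label to 14.9% and 27.1% under the luminal label.

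The rest of the pathway was read from 8 lists with 63 genes, of which 57 were above 0 FPKM in all 4 libraries. Under the basal label 33 were higher and 24 lower with baicalin, with 7 higher by over 1 on the log2 scale, none lower by over 1 and a median of 0.07. Under the luminal label 39 were higher and 18 lower, with 6 higher and 2 lower by over 1 and a median of 0.22. Of all genes, 50.9% were higher under the basal label, 2.15% were higher by over 1 and 3.33% were lower by over 1. Under the luminal label these shares were 45.6%, 2.37% and 1.59%. The lists were also chosen with earlier results of these data known, so nothing is read from the counts.

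Among genes that supply cysteine by other routes, Cth, the enzyme that makes cysteine in transsulfuration, had 1.39 and 1.75 FPKM under the basal label and 2.30 and 8.21 FPKM under the luminal label. Cdo1, which oxidises cysteine and so removes it, had 1.61 and 0.773 FPKM, then 12.7 and 1.68 FPKM. The median of the 7 genes was -0.23 under the basal label and -0.52 under the luminal label. Of the other carriers, Slc7a5 went from 12.6 to 21.95 FPKM and from 16.9 to 40.8 FPKM, and Slc7a8, another partner of CD98, stood at 0.131 and 0.069 FPKM, then at 2.48 and 7.98 FPKM. The kidney cystine carrier Slc7a9 was listed at 0 in all 4 libraries.

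On the side of breakdown, Chac1, which cleaves glutathione inside the cell and is a target of ATF4, had 2.86 and 14.3 FPKM under the basal label and 0.726 and 8.25 FPKM under the luminal label. Those ratios were 5.01 (4.00 to 6.33) and 11.4 (7.43 to 18.2), the highest log2 changes among the 57 genes. The other tested genes of this list lay between -0.81 and 0.82 under the basal label and between -0.69 and 0.78 under the luminal label.

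Of the enzymes that use glutathione, Esd, which frees formic acid from its glutathione adduct, had 60.1 and 206 FPKM under the basal label and 35.0 and 134 FPKM under the luminal label. Prdx6, a peroxiredoxin reduced by glutathione, had 42.5 and 101 FPKM, then 36.3 and 58.4 FPKM. Of the exporters of glutathione and its conjugates, Abcc1 had 13.9 and 31.5 FPKM, then 12.7 and 26.3 FPKM, and Abcc4 had 0.394 and 3.92 FPKM, then 1.77 and 6.92 FPKM. Abcc3 went from 2.51 to 7.56 FPKM and from 1.05 to 2.39 FPKM. In the transport list 6 of 7 tested genes were higher under each label, beside 50.9% of all genes under the basal and 45.6% under the luminal label. Some of these rises were within counting error, as for Slc25a11 under the basal label, at 1.08 (0.987 to 1.19). Under the luminal label Slc25a40 was at 1.05 (0.882 to 1.25).

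Gpx3, the secreted peroxidase, had 3.42 and 2.53 FPKM under the basal label and 12.2 and 1.28 FPKM under the luminal label, a ratio of 0.105 (0.0761 to 0.142) in the latter. It was lower there while Gpx2 was higher. The glutamate supply list had no gene beyond 1 on the log2 scale with 1 FPKM added under either label. Glul came nearest, from 8.23 to 3.78 FPKM under the basal label. Its ratio of 0.460 (0.395 to 0.534) passes the mark when no FPKM is added.

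The 10 regulators were mostly higher by small amounts, with medians of 0.56 and 0.43. Under each label 9 of 10 were higher, beside 50.9% of all genes under the basal label and 45.6% under the luminal label. Nfe2l2, which encodes NRF2, had 53.6 and 74.5 FPKM under the basal label and 48.8 and 56.8 FPKM under the luminal label. Keap1, its cytoplasmic inhibitor, had 10.5 and 9.90 FPKM, then 11.4 and 11.3 FPKM. Atf4 had 141 and 224 FPKM, then 117 and 195 FPKM. Ddit3, the stress factor CHOP, was the regulator past the mark, with 9.76 and 38.9 FPKM under the basal label, and it had 12.7 and 24.6 FPKM under the luminal label.

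**Figure D5:**
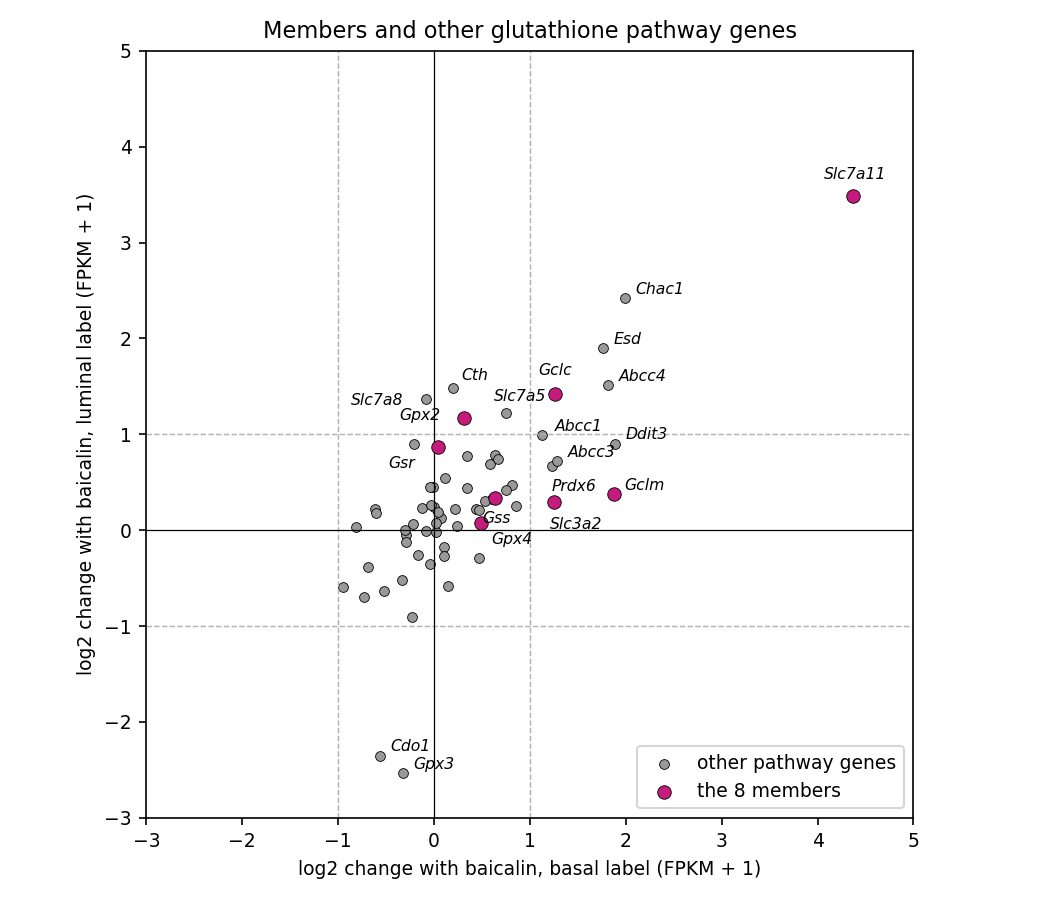
Each point is a gene, placed by its log2 change with baicalin under the basal label (x) and the luminal label (y), with 1 FPKM added, the 8 members in magenta and the 57 other pathway genes in grey, and dashed lines at 1 and -1. Slc7a11 lies apart at 4.37 and 3.49, Chac1 is the highest grey point at 1.99 and 2.42, and Cdo1 and Gpx3 lie lowest, at -2.35 and -2.53 under the luminal label.

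Genes whose profile over the 4 libraries was most like that of a member were sought among 9184 others that reached 5 FPKM in a library, by the Euclidean distance of centred log2 values. For Slc7a11 these were Gm3776 (distance 0.54), Gsta1 (0.73), Gsta2 (1.22), Gdf15 (1.52) and Rps26-ps1 (1.54), where a flat profile would lie at 4.01. Gsta1 and Gsta2 are closely related glutathione S-transferase genes, so the split of fragments between them is uncertain. Gsta2 was listed at 0 in the DMSO library labelled basal. For Gclm they were Snord55 (0.20), Blvrb (0.21), Fam129a (0.27), Vldlr (0.30) and Ephx1 (0.36), against 1.46 for a flat profile. Blvrb, a biliverdin reductase, had 2.10, 11.4, 7.37 and 11.1 FPKM in the order basal DMSO, basal baicalin, luminal DMSO and luminal baicalin. For Gpx2 they were Igfbp6 (0.32), Wnt5a (0.32), Slc1a3 (0.51), Scel (0.56) and Lama1 (0.62), against 3.23. With 4 libraries many genes can have like profiles, and the list is a description only.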

How the data were processed

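Per the study's methods, polyadenylated RNA was sequenced from stranded libraries, aligned to GRCm38 by HISAT2 and counted by featureCounts, and the authors deposited FPKM for 54446 genes. The submitters' processing notes also name Bowtie 0.12.2 and the build mm8, with no role. Whether counting used strand is not given in the sources used here. Exon lengths from GENCODE M21 (GRCm38) were found for 54409 genes. With them, FPKM values turned into whole fragments (within 0.1 fragment for 98.7% to 98.9% of low genes, within 0.009 for the 8 members), which gave depth and fragments. No count test was run.

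Changes are log2((FPKM + 1)/(FPKM + 1)) on the 17787 genes above 0 in all 4 libraries, which understates changes of low genes, and the mark is 1. Intervals are exact Clopper-Pearson on fragments at 95%, and normal on the log scale for ratios of ratios. They cover counting error only. Shared stretches were found by BLAST 2.17.0 at 95% identity or more over 200 bases or more. In simulated libraries with Poisson counts, genes changed 4-fold were drawn from those with 5 FPKM or more in the base library. Of these, 100% passed the mark in each comparison. Lower genes, such as Slc7a11 with DMSO, were not covered by that check. Leaving out genes with few fragments, 95.5% of intervals held the true ratio for the basal label. The counts were drawn from the model that the intervals assume, so this checks the code and not variation between cultures. All pathway genes beyond 1 under either label with 5 FPKM or more in a library were named. Nfe2l2, Keap1, Atf4, Slc7a6, Slc7a9, Gpx1, Glul, Slc25a11 and Slc25a40 are given outside that rule. Members and lists were chosen with earlier results of these data known. Software was matplotlib 3.10.9, scipy 1.17.1, pandas 2.3.3 and numpy 2.4.6 under Python 3.11.15. Hormone-treated samples were not analysed here.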

Additional observations from a re-analysis of the deposited data

Results flagged for a closer look

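Within a label, the ratio of Gclc to Gclm in FPKM moved in opposite directions with baicalin, from 2.38 to 1.49 under the basal label and from 1.82 to 3.80 under the luminal label. The ratio of Gsr to Gss did so as well, from 5.14 to 3.19 under the basal label and from 3.57 to 5.12 under the luminal label. In each of these 4 pairs the counting intervals of DMSO and baicalin did not overlap. The differences between the labels were not tested, since each condition had 1 library.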

How the results depend on the processing

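For the 8 members, no log2 change beyond 1 changed sign with a pseudocount of 0.1, without one, after scaling to TPM or after centring on the median, and the number of members past 1 was the same in each of these settings. Of single members' values and shares under the alternatives, 146 stayed within a counting interval around the reported value and 38 moved beyond it. For log2 changes that interval was centred on the value with 1 FPKM added. The log2 change of Slc7a11 was among those that moved, being 4.81 and 3.97 without a pseudocount under the basal and luminal label. Both values are the log2 of the ratios given above, so they lie inside the intervals of those ratios. Of the shares, only that of Gpx4 in the luminal DMSO library by summed fragments stayed, and all the others moved. As a share of summed fragments, without division by exon length, Slc7a11 held 23.2% and 89.1% of the light chains with DMSO and baicalin under the basal label. Under the luminal label it held 16.4% and 65.8%. Without Slc7a11, a choice made after seeing the data, the median of the members was 0.64 for baicalin under the basal label, 0.37 under the luminal label and 0.82 between labels with DMSO. Counts over all genes depended on the pseudocount, the scaling and the threshold. They are given as higher then lower for baicalin under the basal label, baicalin under the luminal label, luminal against basal with DMSO, and luminal against basal with baicalin. With a pseudocount of 0.1 they were 1123 and 1302, 1052 and 913, 2027 and 1467, and 2030 and 1327. Without a pseudocount they were 1693 and 2054, 1559 and 1537, 2872 and 1926, and 2632 and 2003. After scaling to TPM they were 696 and 1002, 718 and 578, 1306 and 1279, and 1439 and 1083. TPM values are larger than FPKM values here, so the added 1 weighs less in that setting and its effect is not separate from the pseudocount's. With a threshold of 2 they were 41 and 132, 60 and 46, 185 and 150, and 242 and 59. The main counts were 383 and 592, 421 and 282, 837 and 686, and 932 and 531. No paired analysis was possible because each condition had 1 library and no replicate numbers. Depth limited the members little, with 584 fragments or more behind each value, while the lack of replicates limits every comparison.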

Other observations

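Transcribed units inside member genes were also listed. Gm37498, an unclassified unit within the span of Slc7a11 on the same strand that shares no exon base with it, had 0.0378 and 0.715 FPKM with DMSO and baicalin under the basal label and 0 and 0.157 FPKM under the luminal label. Gm6061, the pseudogene that shares exon bases with Gclm, had 1.84 and 9.72 FPKM under the basal label and 11.0 and 12.8 FPKM under the luminal label. Ppia, with which Gclm transcripts share 287 bases, had 291 and 155 FPKM, then 327 and 212 FPKM, so it was lower with baicalin where Gm6061 was higher.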
